A study of Rattus norvegicus with 119 samples.

Results

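Ptn, Nell2 and Scube1 are 3 genes for secreted proteins, and their rows were followed through every count table of a study of mesenchyme in the female rat urethra. They were chosen by Ensembl identifier, ENSRNOG00000011946 for Ptn, ENSRNOG00000006235 for Nell2 and ENSRNOG00000010617 for Scube1, and are 3 of the 32662 genes in the tables. The study compared the ventral mesenchymal pad (VMP) with the adjacent urethra (SU) on the day of birth (P0, postnatal day 0), to find transcripts that mark VMP mesenchyme. The VMP is a condensed mesenchyme lying on the ventral urethra, and SU holds the urethral epithelium together with smooth muscle and the mesenchyme around the urethra. Both tissues came from untreated Wistar rats, labelled female for the bulk libraries, and no treatment or allele is given in the labels. Tag-seq sequenced short tags, next to NlaIII sites in polyadenylated RNA, from pools of intact tissue, with 1 library per tissue. RNA-seq was made from collagenase-dissociated cells of each tissue, again with 1 library per tissue, and the same kind of suspension gave 49 VMP and 66 SU single cells on a Fluidigm C1 chip. All animals of a tissue were pooled, so no value below carries the spread between animals, and in bulk libraries fewer expressing cells and less RNA per cell cannot be told apart.

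Pleiotrophin, the product of Ptn, is a small heparin-binding growth factor made by many mesenchymes. It binds receptor phosphatases such as Ptprz1 and cell-surface proteoglycans such as the syndecans. Nell2 encodes a secreted glycoprotein with EGF-like repeats, best known from neurons, where it guides axons through Robo receptors. Scube1 encodes a secreted or membrane-bound protein with a CUB domain and EGF-like repeats. The Scube family takes part in the release of Hedgehog ligands and binds members of the BMP family, and Hedgehog, BMP and FGF signals between mesenchyme and epithelium shape the urogenital sinus and the prostate.

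In the positions paired with these identifiers on Rnor_6.0, all 3 genes are protein-coding. Ptn lies on chromosome 4 from 64239158 to 64330996. Nell2 lies on chromosome 7 from 136526496 to 136853957, and Scube1 lies on the same chromosome from 124501988 to 124620703. RefSeq promoter sequences were matched for 2 of the 3 genes on the GRCr8 build, and they are shown because these genes were higher in the same tissue in every assay. Each line gives the 250 bases before the annotated start, on the strand of the gene, with matches to the motifs named next in capitals.
Ptn, chr4:66342333-66342582, minus strand: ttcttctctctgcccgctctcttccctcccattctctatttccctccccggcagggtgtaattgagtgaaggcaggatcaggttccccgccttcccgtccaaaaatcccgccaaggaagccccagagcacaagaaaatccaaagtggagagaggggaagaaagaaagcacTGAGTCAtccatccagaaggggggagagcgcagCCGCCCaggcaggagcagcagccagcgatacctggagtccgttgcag
Scube1, chr7:116760945-116761194, minus strand: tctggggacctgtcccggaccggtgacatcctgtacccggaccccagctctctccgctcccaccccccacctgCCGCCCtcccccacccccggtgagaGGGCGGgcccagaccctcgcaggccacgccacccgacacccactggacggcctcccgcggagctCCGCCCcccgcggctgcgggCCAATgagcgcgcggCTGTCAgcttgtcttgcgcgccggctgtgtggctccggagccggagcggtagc
The motifs, chosen after the sequences were seen, were searched on both strands, and none of the matches below overlap. The Ptn window held 1 match to the AP-1 motif TGANTCA, 80 bases before the start, a motif present in 6.34% of 33469 RefSeq promoter windows of the same length. It also held 1 match to GGGCGG, which occurs in 30.5% of windows. The Scube1 window held 3 matches to GGGCGG, 1 to CCAAT, which occurs in 34% of windows, and 1 to TGACAG, the core recognised by Meis factors, which occurs in 15.8%. Neither window held TATAAA, found in 12.9% of windows. G and C made up 57.6% of the Ptn window and 75.2% of the Scube1 window, against a median of 51.2% over all windows.

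Before the values, 3 facts about the libraries bear on them. The protocol in the labels states 52 VMP and 63 SU cells while the labels themselves give 49 and 66, with the same total of 115, and which cells account for the difference of 3 cannot be told from the labels. If up to 3 cells carry the label of the other tissue, the small SU counts given below would change. The cells held 199849 to 1488320 counts on genes, with medians of 614376 in VMP and 631066 in SU, no 2 cells held identical counts, and 33 chamber numbers occur in both tissues. The tissues also differed in markers of other cell types. The summed level of 17 epithelial markers was 646 CPM (counts scaled to a common library total) in VMP against 10541 in SU by Tag-seq and 28.2 against 282 by RNA-seq, and in single cells it had a median of 2.89 CPM in VMP and 1.49 in SU, with 12 and 9 of the 17 at 0 in every cell. The 8 matched mesenchymal markers, among them Col1a1, Col3a1 and Pdgfra, summed to at least 3701 CPM in every VMP cell and 5156 CPM in every SU cell. Their medians were 10715 CPM in VMP cells and 29887 in SU cells. In bulk these markers were higher in VMP by Tag-seq, at 46076 against 23107 CPM, and higher in SU by RNA-seq, at 22042 against 50267. The 13 skeletal muscle markers summed to 1700 CPM in VMP and 6818 in SU by Tag-seq, and to 59.1 and 513 by RNA-seq. Of 9 endothelial markers 5 could be matched, and they summed to 686 against 225 CPM by Tag-seq and 870 against 385 by RNA-seq. Both sums were higher in VMP. By the calls described below, RNA-seq had 1 of the 5 higher in VMP and 1 in SU, and Tag-seq had 4 and 0. For all transcripts these shares were 10.4% and 12% in RNA-seq, and 8.27% and 13% in Tag-seq. Symbols came from lists of transcripts that the study had called, so the marker sums do not measure whole cell types. The part of all these markers in the differences below was not tested, except where a value within single cells is given.

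In Tag-seq of intact tissue, all 3 factors were higher in VMP. Ptn had 36337 counts in VMP, or 4617 CPM (95% Poisson interval 4570 to 4665), and 14806 in SU, or 1802 CPM (1773 to 1832). This made Ptn the 5th highest of 12191 transcripts in VMP and the 39th highest in SU. Scaled by TMM, the log2 ratio of VMP to SU was 1.23 (counting interval 1.20 to 1.26), a 2.34-fold difference. Nell2 was far lower, with 322 counts or 40.9 CPM (36.6 to 45.6) in VMP and 132 counts or 16.1 CPM (13.4 to 19.1) in SU. Its log2 ratio was 1.22 (0.92 to 1.52), so its difference was close to that of Ptn at a far lower level. Scube1 was the lowest of the 3, with 200 counts or 25.4 CPM (22 to 29.2) in VMP and 53 counts or 6.45 CPM (4.83 to 8.44) in SU. Its ratio was the largest in this assay, at 1.84 on the log2 scale (1.40 to 2.31), or 3.6-fold. In each tissue the tag counts ran Ptn above Nell2 above Scube1, and the counting intervals of neighbours do not overlap. Tag counts do not grow with transcript length, but they depend on each transcript's NlaIII site and on unique mapping of a 17-base tag. The order is therefore one of tags, and may not be that of the transcripts.

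RNA-seq of dissociated cells gave the same direction for each factor and a larger difference for Nell2. Ptn had 9225 counts in VMP, or 2098 CPM, and 3653 in SU, or 521 CPM, a log2 ratio of 1.80 (1.74 to 1.85). Nell2 had 1523 counts in VMP, or 346 CPM (329 to 364), against 147 in SU, or 21 CPM (17.7 to 24.7). The log2 ratio of Nell2 was 3.83 (3.59 to 4.09), or 14.2-fold. Scube1 had 93 counts in VMP, or 21.1 CPM (17.1 to 25.9), and 35 in SU, or 4.99 CPM (3.48 to 6.95), a log2 ratio of 1.86 (1.29 to 2.47). These counts do not correct for transcript length, so levels were not compared between genes here.

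**Figure D1:**
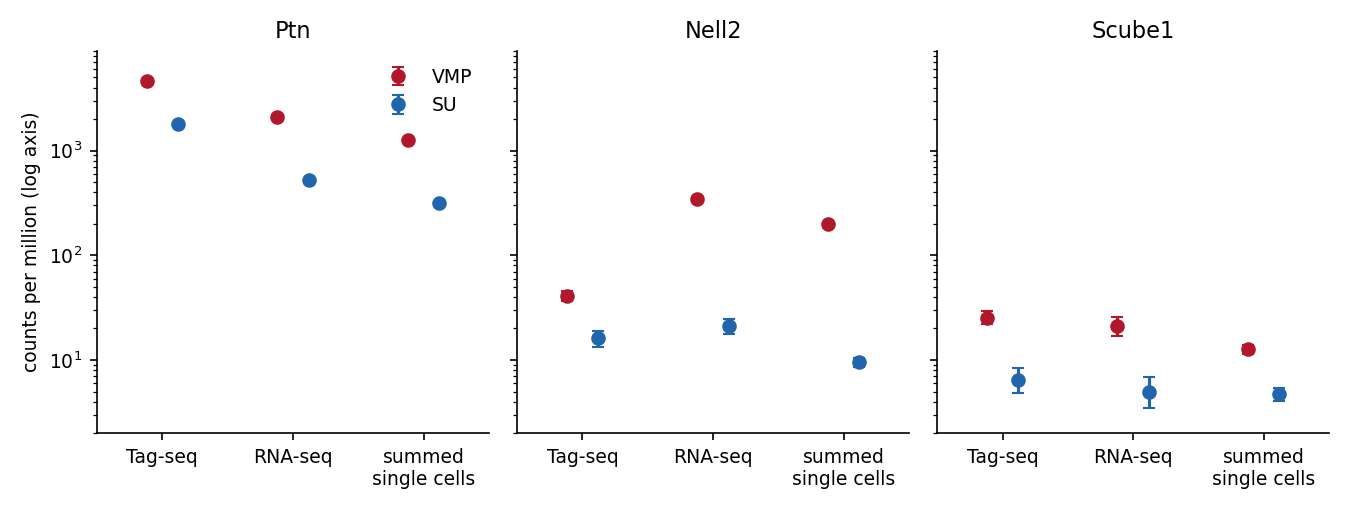
Level of each factor in CPM (log axis) in VMP (red) and SU (blue) for Tag-seq, RNA-seq and the summed single cells, with 95% Poisson intervals that cover counting error only. The red point lies above the blue point in all 9 pairs, and the gap for Nell2 widens from 2.33-fold in Tag-seq to 14.2-fold in RNA-seq and 21-fold in the summed cells (folds of the bulk assays scaled by TMM).

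Calls of DE (differentially expressed) transcripts followed the NOISeq scheme for samples without replicates, which sets each transcript beside simulated technical noise. At a NOISeq probability of 0.9, all 3 factors were called higher in VMP in Tag-seq, where 8.27% of 12191 transcripts were called in that direction. In RNA-seq all 3 were called again, against 10.4% of 17527 transcripts. Both assays called 206 of the 11273 transcripts tested in both, or 1.83%, higher in VMP, and the 3 factors are among them. These calls depend on the limits. At a probability of 0.95 only Scube1 remained called in Tag-seq and only Nell2 in RNA-seq, where 2.31% and 5.00% of all transcripts were called higher in VMP. With an added limit of 1.5 on the absolute log2 ratio Scube1 was the 1 factor left in Tag-seq, against 4.70% of transcripts. In a setting added after the data were seen, the simulated counts were put on the same scale as the measured ones. Tag-seq then called Ptn alone and RNA-seq called Ptn and Nell2, against 4.82% and 3.05% of all transcripts called higher in VMP.

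The sizes of the differences were not extreme for these libraries. A log2 ratio at least as large as that of Ptn was seen in 11.2% of transcripts in Tag-seq and 13.8% in RNA-seq. For Nell2 the shares were 11.4% and 7.05%, and for Scube1 3.90% and 13.3%. The median log2 ratio over all transcripts was -0.01 in Tag-seq and 0.03 in RNA-seq.

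Both bulk assays were then fitted together over all 18445 transcripts with the assay as a block, so no spread between animals enters. With 4 libraries, the disagreement between assays is poorly known for any 1 transcript, and the fits borrow spread from other transcripts. The p-values therefore do not rank the factors by how well the assays agreed. Between RNA-seq and Tag-seq the log2 ratio differed by 2.61 for Nell2, 0.57 for Ptn and 0.02 for Scube1. Nell2 was higher in VMP by 2.51 on the log2 scale (edgeR quasi-likelihood test, Benjamini-Hochberg adjusted p = 0.0116), a call made for 0.374% of transcripts in that direction. This call was lost with DESeq2 (adjusted p = 0.114), which called 0.298% of transcripts higher in VMP, and when the summed cells entered the edgeR fit as the 3rd assay (adjusted p = 0.364), where no transcript of 19211 passed in either direction and 411 were higher in VMP at an unadjusted p under 0.05. Ptn differed by 1.49 (edgeR adjusted p = 0.668) and Scube1 by 1.83 (edgeR adjusted p = 0.559), and neither passed. For Ptn, DESeq2 gave an adjusted p of 0.0506. RNA-seq and the summed cells both came from dissociated cells, perhaps of the same suspensions, so the fit with a 3rd assay does not hold 3 independent assays.

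Summing the reads over cells, all 3 factors were again more than 2-fold higher in VMP, as were 18.3% of the 10150 genes read in at least 20 cells. Genes that were at least 2-fold higher in VMP in all 3 assays made up 1.64% of the 7679 genes tested in each, and they include the 3 factors. The study's methods describe bulk libraries made from the cell suspensions as a comparator for the single cells. RNA-seq and the summed cells may therefore share a pool and its dissociation, and are not independent assays. Ptn summed to 37885 reads in VMP cells and 13936 in SU cells, or 1271 against 315 CPM, with a log2 ratio of 2.01. Nell2 summed to 5969 and 422 reads, or 200.2 against 9.55 CPM. Its log2 ratio was 4.39 (4.25 to 4.54), or 21-fold, and 47 of the 10150 genes, Nell2 included, had a ratio at least as large, or 0.463%. Scube1 summed to 377 and 208 reads, or 12.6 against 4.71 CPM, with a log2 ratio of 1.42 (1.18 to 1.68).

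A single cell moved some of these sums. SU cell 42 held 143 of the 208 Scube1 reads in SU, and without it the log2 ratio of Scube1 rose from 1.42 to 3.08. Without VMP cell 81, which held 132 of the 377 Scube1 reads in VMP, the ratio was 0.84, and as the mean of the CPM of each cell, in place of the sum, it was 0.78. For Nell2, SU cell 38 held 200 of the 422 SU reads, and the log2 ratio was 5.29 without it. Leaving out VMP cell 25, with 1287 Nell2 reads, gave 4.09. The ratio of Ptn stayed between 1.81 and 2.15 when the highest cell of either tissue was left out.

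Across assays the factors behaved differently. The log2 ratio of Nell2 was higher by 2.61 in RNA-seq than in Tag-seq, and by 3.17 in the summed cells. Most of this change lay in VMP, where the CPM of Nell2 was 8.46 times as high in RNA-seq as in Tag-seq, compared with 1.31 times in SU. For Ptn the log2 ratio in RNA-seq exceeded that in Tag-seq by 0.57, and for Scube1 by 0.02. Tag-seq used intact tissue and counted single tags per transcript, and the other assays used dissociated cells and full-length cDNA, so tissue and method cannot be told apart.

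Ptn was read in every cell of both tissues, 49 of 49 in VMP (exact binomial interval 92.7% to 100%) and 66 of 66 in SU (94.6% to 100%). Only 387 of the 10150 genes, or 3.81%, had a read in all 115 cells. The level separated the tissues better than detection. In VMP cells Ptn ranged from 47.1 CPM through a median of 951 to 8181, and in SU cells from 1.85 CPM through a median of 137 to 2285. The ranges overlapped over most of their length, with 21 SU cells below the lowest VMP cell and 6 VMP cells above the highest SU cell. The VMP median was exceeded by 5 SU cells, and 4 VMP cells fell under the SU median. At 1000 CPM or more there were 23 VMP cells and 5 SU cells. Among the 3 VMP cells with most Ptn reads, number 37 held 786 CPM of the 5 endothelial markers, and numbers 25 and 94 held 566 and 957 CPM of 2 smooth muscle markers, all far above the VMP medians of 46.8 and 6.29. In turn, 8, 5 and 1 VMP cells were higher, and every VMP cell held at least 1.07 CPM of the endothelial markers. The mesenchymal markers of these 3 cells summed to 13228, 12254 and 26323 CPM, above the VMP median of 10715, and number 94 was the highest VMP cell. The 3 SU cells with most Ptn reads, numbers 41, 37 and 59, held 573, 502 and 304 CPM of the skeletal muscle markers, against an SU median of 68.5. In turn, 8, 11 and 17 SU cells held a higher sum. The mesenchymal markers of these 3 SU cells summed to 11726, 28030 and 29482 CPM, under the SU median of 29887. In turn, 59, 38 and 34 SU cells were higher. The highest Ptn level in SU, 2285 CPM, was in cell 67 with 1117 reads, whose markers were not examined. The part of these markers in the Ptn values was not tested.

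SU cells had a low tail of Ptn. Of these cells, 10 had only 1 to 4 Ptn reads and 11 were under 10 CPM, whereas every VMP cell had at least 29 reads. Relative to its mean, Ptn also varied more over SU cells (coefficient of variation 1.51) than over VMP cells (1.09). Its level followed the depth of the cell weakly, with a Spearman rho of 0.21 over VMP cells and 0.27 over SU cells. Fgf10, a growth factor used as a marker of VMP mesenchyme, also had a read in 65 of 66 SU cells. Its median there was 7.62 CPM, near the level of the SU cells lowest in Ptn. In SU, Fgf10 had 200 CPM by Tag-seq of intact tissue and 28.4 CPM by RNA-seq of dissociated cells. Whether its reads in SU cells are expression was not tested, so they give no rate of stray reads. Whether the lowest Ptn reads are background was not tested.

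**Figure D2:**
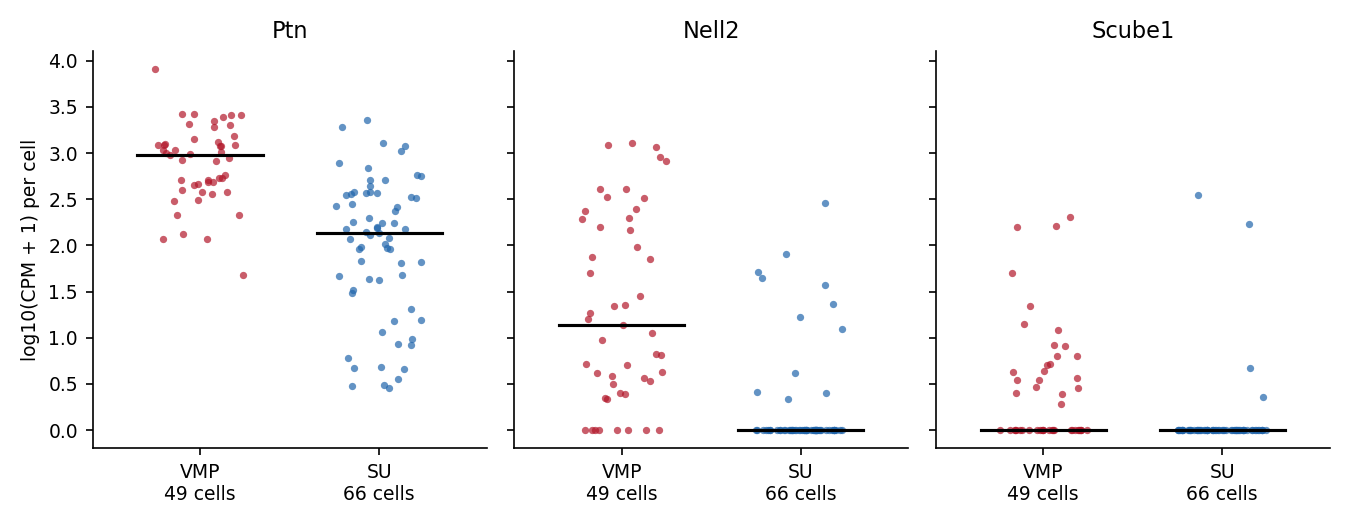
Level of each factor in every single cell as log10(CPM + 1), for 49 VMP cells (red) and 66 SU cells (blue), with a black bar at the median. Ptn lies above 0 in every cell with medians of 951 and 137 CPM, Nell2 spreads from 0 to 1282 CPM in VMP, and Scube1 is at 0 in most cells of either tissue.

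Nell2 was the factor whose detection differed most between tissues. It was read in 41 of 49 VMP cells (83.7%, 70.3% to 92.7%) and in 12 of 66 SU cells (18.2%, 9.76% to 29.6%). A difference of 65.5 percentage points or more in favour of VMP was seen for 5 of the 10150 genes, Nell2 included, or 0.0493%. With every cell brought to the depth of the shallowest, 199849 counts, the expected shares were 69% and 14.1%. The gap remained at stricter limits, with 26 VMP and 8 SU cells at 5 or more reads and 14 VMP cells and 1 SU cell at 100 or more.

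In VMP, Nell2 was far from uniform. The lowest cells had no read, the median was 12.6 CPM and the highest cell reached 1282 CPM. In all, 15 VMP cells were at 100 CPM or more, while 15 others had only 1 to 4 reads. The top 5 cells held 69.3% of all Nell2 reads in VMP. In SU the median was 0 and the maximum 291 CPM, a level passed by 9 VMP cells. The VMP cells with most Nell2 reads, 1287, 960 and 859, had 2798, 1168 and 341 reads of Ptn, so cells rich in Nell2 differed widely in Ptn. The SU cells at the top, numbers 38, 37 and 59, had 200, 85 and 46 Nell2 reads. Numbers 37 and 59 are the same SU cells named above for Ptn. In cells 38, 37 and 59 the 13 skeletal muscle markers summed to 1039, 502 and 304 CPM, against an SU median of 68.5 CPM. In turn, 3, 11 and 17 SU cells were higher. In the top VMP cells the same markers summed to 3.79, 8.52 and 7.46 CPM, under the VMP median of 13.9. The VMP cell with most Nell2 reads, number 25, held 566 CPM of the 2 matched smooth muscle markers, Lmod1 and Des, against a VMP median of 6.29. By level it came after number 29, at 1219 against 1282 CPM of Nell2. The next by reads, number 87, had no read of the smooth muscle markers, and number 29 held 1033 CPM of the 5 endothelial markers against a median of 46.8. The part of these cells' other markers in the Nell2 values was not tested.

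Scube1 was read in fewer cells and with fewer reads. It had a read in 23 of 49 VMP cells (46.9%, 32.5% to 61.7%) and in 4 of 66 SU cells (6.06%, 1.68% to 14.8%). The difference of 40.9 percentage points was reached by 78 of 10150 genes, or 0.768%. At equal depth the expected shares were 32% and 4.33%. Most of these detections were of a few reads, since 16 of the 23 VMP cells had 1 to 4, and at 5 or more reads there were 7 VMP and 2 SU cells, with intervals of 5.94% to 27.2% and 0.369% to 10.5% that overlap.

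The reads of Scube1 sat in a handful of cells. In VMP the top 2 cells, numbers 81 and 29, held 132 and 108 reads, or 63.7% of the total. In SU the top 2 cells, numbers 42 and 12, held 143 and 62 reads, or 98.6% of the total. The highest level of any cell, 350 CPM, was in SU and not in VMP, where the maximum was 200.4 CPM. The 5 endothelial markers summed to 251 and 1033 CPM in VMP cells 81 and 29, against a VMP median of 46.8, and to 12.2 and 691 CPM in SU cells 42 and 12, against an SU median of 21. SU cell 42 also held 326 CPM of the 2 matched leukocyte markers, Cd14 and Cd74, against a median of 0, and 1 SU cell was higher. The 8 mesenchymal markers summed to 5024 CPM in VMP cell 29, where 45 of the 49 VMP cells were higher. The part of these markers in the Scube1 values was not tested.

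**Figure D3:**
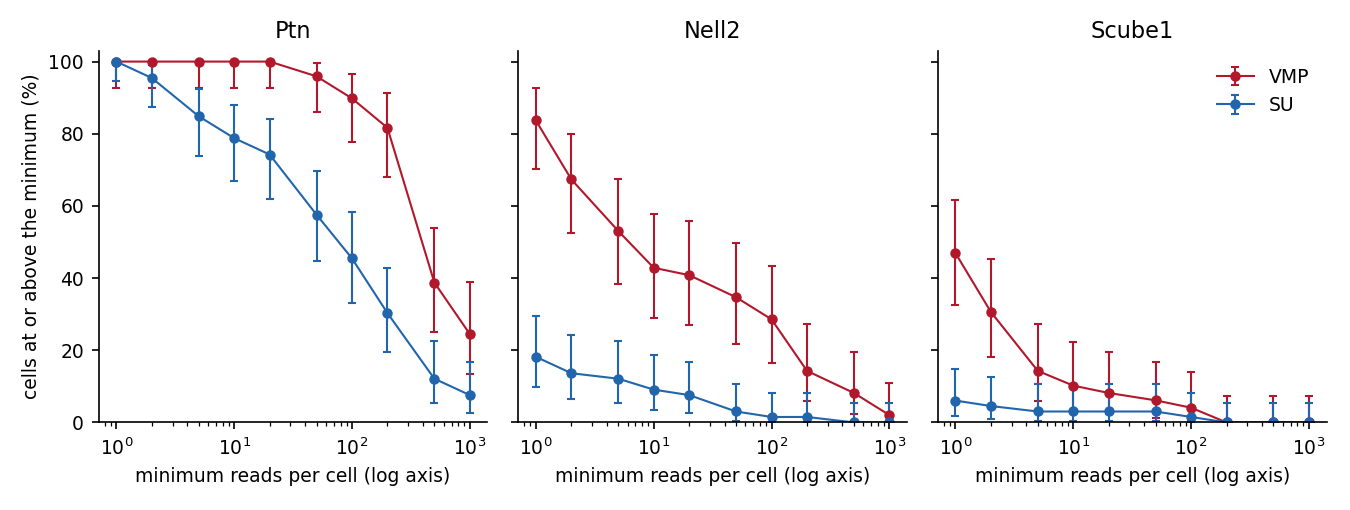
Share of VMP (red) and SU (blue) cells with at least the number of reads on the x axis (log scale), with exact binomial 95% intervals. At 1 read Ptn is in all cells of both tissues, Nell2 in 83.7% against 18.2% and Scube1 in 46.9% against 6.06%, and the Scube1 intervals overlap from 5 reads onwards.

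Because every cell had Ptn, co-detection of the 3 factors turned on Nell2 and Scube1. Among VMP cells, 19 had all 3 factors, 22 had Ptn and Nell2, 4 had Ptn and Scube1 and 4 had Ptn alone. Among SU cells, 50 had Ptn alone, 12 had Ptn and Nell2, 4 had Ptn and Scube1, and none had all 3, which allows a share of up to 5.44% of SU cells with reads of all 3 (exact binomial limit). At 5 or more reads, 5 VMP cells and no SU cell had all 3 factors, and 21 VMP and 46 SU cells had Ptn alone.

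Within VMP, a difference in Scube1 detection between cells with and without Nell2 was not detectable with 49 cells. Scube1 was read in 19 of 41 cells with Nell2 (46.3%, 30.7% to 62.6%) and in 4 of 8 without (50.0%, 15.7% to 84.3%). At 5 or more reads the shares were 5 of 26 (19.2%, 6.55% to 39.4%) and 2 of 23 (8.70%, 1.07% to 28%), with overlapping intervals. In SU, none of 12 cells with Nell2 had Scube1 (up to 26.5%), against 4 of 54 without (7.41%, 2.06% to 17.9%). The cell highest in Scube1 in VMP, number 81, also had 543 reads of Nell2, and the next, number 29, had 859, while the SU cells highest in Scube1 had none.

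**Figure D4:**
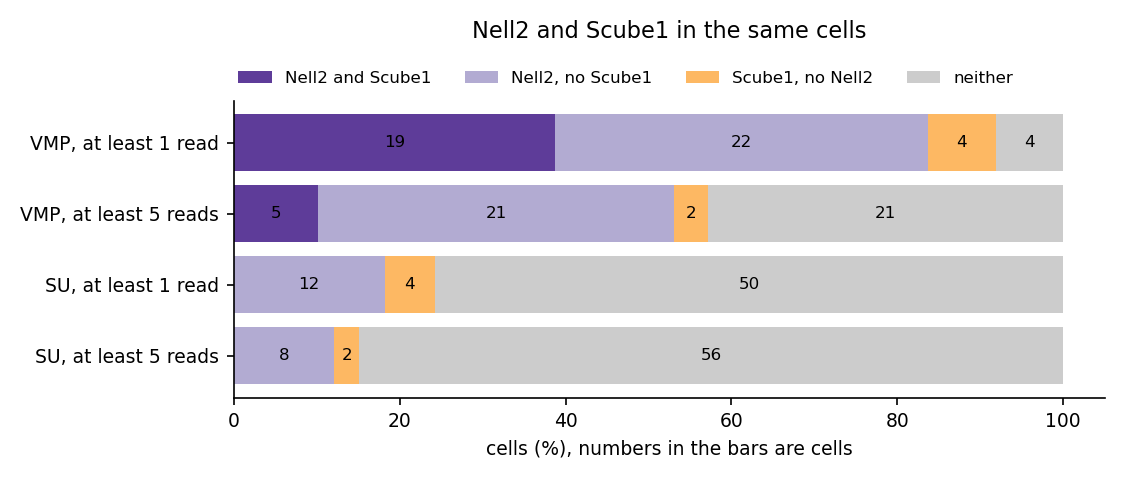
Cells by detection of Nell2 and Scube1, as a percentage of the 49 VMP or 66 SU cells, at limits of 1 and 5 reads, with cell counts in the bars. All cells also had Ptn at 1 read. Both were found together in 19 VMP cells at 1 read and 5 at 5 reads, and in no SU cell.

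Levels of the 3 factors showed little correlation from cell to cell. Over VMP cells the Spearman rho of CPM was -0.07 for Ptn with Nell2, 0.12 for Ptn with Scube1 and 0.05 for Nell2 with Scube1. Over SU cells the values were 0.09, 0.02 and -0.12. Cells of a tissue share 1 chip and pool, and Nell2 and Scube1 are sparse, so these values are descriptions. Ptn followed Igf2, an insulin-like growth factor of fetal mesenchyme, more closely, with rho of 0.41 in VMP and 0.36 in SU. With Fgf10 it gave 0.31 in VMP and 0.08 in SU. Nell2 with Fgf10 gave -0.25 in VMP and 0.12 in SU.

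Genes whose level over cells was most like each factor were sought among 8487 genes read in at least 20 cells and in at least 10 of each tissue, by the mean of the rho within VMP and the rho within SU. The best 5 for Ptn had means of 0.386 to 0.406, led by ENSRNOG00000010630 with 0.51 in VMP and 0.30 in SU. For Nell2 the best 5 had means of 0.311 to 0.351, led by ENSRNOG00000037709 with 0.38 in VMP and 0.33 in SU. No symbol was paired with any of these identifiers. These are the highest of 8487 values, and how high the top values would be for unrelated genes was not tested. They are therefore not shown to be genes expressed together with the factors. Scube1 was read in too few SU cells for this measure.

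Of the matched binding partners of pleiotrophin, the syndecans were higher in SU in every assay, and the others varied between assays. Of 14 listed receptors and relatives 6 could be matched to an identifier, under 80%, and symbols came from lists of transcripts that the study had called, so counts over this list say nothing of the pathway as a whole. The same holds for the Nell2 and Scube1 lists below. None of the 6 was called higher in VMP in either assay, and 4 in Tag-seq and 5 in RNA-seq were called higher in SU. Over all transcripts, 13% in Tag-seq and 12% in RNA-seq were called higher in SU. Syndecans 1, 2 and 4, proteoglycans that present heparin-binding factors, were higher in SU in each assay. Sdc1 had log2 ratios of -1.75 in Tag-seq, -1.69 in RNA-seq and -2.95 in the summed cells (-3.64 without the highest VMP cell). Sdc2 gave -1.30, -2.80 and -2.48, and Sdc4 gave -2.03, -2.77 and -1.84. Sdc2 had a read in 63 of 66 SU cells and 28 of 49 VMP cells, at medians of 168 and 2.89 CPM. Ptprz1, the receptor phosphatase, was higher in SU in Tag-seq at -1.96 and in the summed cells at -2.05 (-2.96 without the highest VMP cell and -1.22 without the highest SU cell), and gave -0.03 in RNA-seq, where it was not called. Nrp1, a co-receptor for semaphorins and VEGF to which pleiotrophin can bind, gave 0.53 in Tag-seq without a call, -1.76 in RNA-seq and -5.38 in the summed cells (-6.63 without the highest VMP cell). Itgb3 had no Tag-seq count, gave -2.37 in RNA-seq and 3.76 in the summed cells, where 284 of its 288 VMP reads were in 1 cell and the ratio was -2.21 without it.

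Robo1 and Robo2, receptors of the family through which Nell2 acts in neurons, were higher in VMP. They are 2 of the 3 genes that could be matched from 8 listed. Robo1 had log2 ratios of 2.32 (1.78 to 2.94) in Tag-seq, 2.47 (2.27 to 2.68) in RNA-seq and 3.35 (3.18 to 3.54) in the summed cells, where 875 of its 2036 VMP reads were in 1 cell and the ratio was 2.57 without it. Robo2 gave 2.23 (2.02 to 2.46), 1.29 (1.18 to 1.40) and 1.46 (1.42 to 1.49). In the summed cells its ratio was 1.28 without the highest VMP cell and 1.71 without the highest SU cell, outside that counting interval. Robo1 and Robo2 were called higher in VMP in Tag-seq and RNA-seq, as were 8.27% and 10.4% of all transcripts. Robo2 was read in all 49 VMP cells at a median of 437 CPM and in 64 of 66 SU cells at a median of 45.2 CPM, so cells of both tissues had it. Robo1 had a read in 21 VMP and 24 SU cells, and 18 against 10 at 5 or more reads. Slit2, a Robo ligand, gave 0.71 in Tag-seq without a call, and was called higher in SU in RNA-seq at -1.92, with -1.61 in the summed cells.

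Among Hedgehog and BMP genes that relate to Scube1, the assays differed. Of 21 listed genes 7 were matched, with 2 called higher in VMP and 2 in SU in Tag-seq, and 1 and 4 in RNA-seq. For all transcripts the shares called were 8.27% and 13% in Tag-seq and 10.4% and 12% in RNA-seq. Bmp2 was higher in SU throughout, with log2 ratios of -2.61, -3.04 and -2.44 in Tag-seq, RNA-seq and the summed cells. Bmp7 had 27 counts in VMP and 131 in SU by Tag-seq, a log2 ratio of -2.33, and none in VMP by RNA-seq or single cells. Taking a floor of 3 counts over the VMP library, which covers counting error only, it was at least 42-fold higher in SU by RNA-seq. In single cells Bmp7 was read in 0 of 49 VMP cells, which allows up to 7.25% (exact binomial limit), and in 34 of 66 SU cells. The reads sat in few cells, with 192 of 717 SU reads in 1 cell, so no fold is given for the summed cells. Bmp4 was called higher in VMP in Tag-seq at 1.70, and gave -0.75 in RNA-seq, not called, and -0.68 in the summed cells. Neither Gli1 nor Hhip, genes that respond to Hedgehog, was called in intact tissue, at -0.01 and -1.01 in Tag-seq. In RNA-seq Gli1 had 2 VMP and 123 SU counts, a log2 ratio of -5.17 (-8.55 to -3.60), and Hhip had 0 and 326, at least 79.1-fold higher in SU. The summed cells gave -2.31 for Gli1, where 177 of 199 VMP reads were in 1 cell and the ratio was -5.43 without it. For Hhip they gave 0.66 from 2 VMP cells, and -2.05 without the higher of them. Boc, a Hedgehog co-receptor, was called higher in VMP in RNA-seq at 1.58 and not in Tag-seq at 0.69, with 0.89 in the summed cells. Dhh, a Hedgehog ligand, was called in Tag-seq at 1.76 and gave -0.73 in RNA-seq, not called. It gave 0.55 in the summed cells, where 623 of its 1054 VMP reads were in 1 cell, and -0.70 without that cell.

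**Figure D5:**
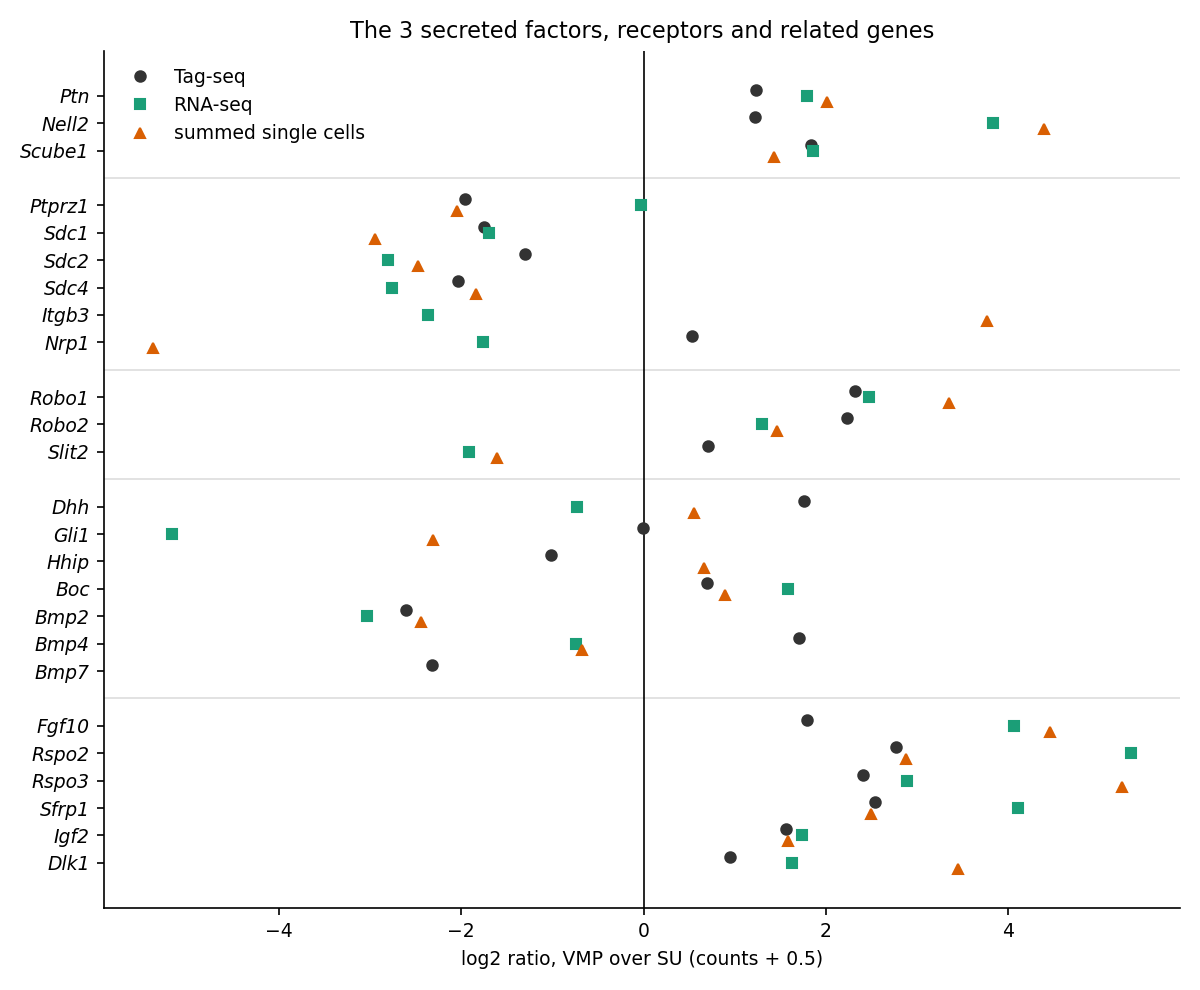
Log2 ratio of VMP to SU, on counts + 0.5, for the 3 factors, matched partners of pleiotrophin, matched Robo genes and Slit2, matched Hedgehog and BMP genes and 6 other secreted factors, in Tag-seq (circles), RNA-seq (squares) and the summed single cells (triangles). Values with no count in a tissue are left out, which are those of Itgb3 in Tag-seq, Hhip in RNA-seq and Bmp7 in RNA-seq and cells. Ptn, Nell2, Scube1, Robo1, Robo2 and the 6 other factors lie right of 0 in every assay, and the 3 syndecans left of it.

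Set beside 6 other secreted factors known as VMP markers, Fgf10, Rspo2, Rspo3, Sfrp1, Igf2 and Dlk1, the 3 factors did not have the largest ratios. In Tag-seq the others had log2 ratios of 0.94 to 2.77 with a median of 2.09, and the 3 factors lay at 1.22 to 1.84. In RNA-seq the others lay between 1.63 and 5.34 with a median of 3.47, and Nell2 at 3.83 was the 1 factor above that median. In the summed cells Nell2, at 4.39, was again above the median of the others, 3.16, and under Fgf10 and Rspo3 at 4.46 and 5.25. By detection Nell2 differed more than any of the 6, with its gap of 65.5 percentage points against 1.52 to 52 for them, a description with no test. Nell2 and Rspo3, an R-spondin that amplifies Wnt signals, were alike in being read in few SU cells, 12 and 2 of 66, but Rspo3 was read in only 19 VMP cells. Rspo3 was read in 17 of the 41 VMP cells with Nell2 and in 2 of the 8 without. Fgf10 was read in every VMP cell, so it was present beside each of the 3 factors there. The 6 factors, like the 3 described here, had been named as VMP markers in earlier work.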

How the data were processed

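Tag-seq, RNA-seq and single-cell RNA-seq of VMP and SU were used, with samples grouped by the tissue and assay in their labels. The values deposited by the authors are read counts per Ensembl gene, without normalization. The authors aligned tags to Rnor_6.0 with Bowtie2 and single-cell reads with TopHat after Trimmomatic 0.33, and removed duplicates with Picard 1.128. Alignment of the bulk RNA-seq is not given in the sources used here. Depth on genes was 7870450 (VMP) and 8215177 (SU) in Tag-seq, and 4397699 and 7007767 in RNA-seq. The 95 spike-in rows stayed out of library sizes.

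Log2 ratios used counts + 0.5, TMM scaling for bulk libraries and total counts for summed cells. All intervals are at 95% and cover counting error only, since reads carried no molecular identifiers. The p-values carry no spread between animals, and rest on spread between assays that is largely shared over transcripts. A count of 0 in a bulk library was given a limit of 3 counts, which covers counting error only. DE calls used a reimplementation of the NOISeq scheme (CPM above 1 in a library, 5 simulated libraries at 20% of depth, variability 0.02, probability of at least 0.9), which is a rank against simulated noise and not a p. Both bulk assays were fitted with edgeR 4.0.16 or DESeq2 1.42.0 in R 4.3.3 at an adjusted p of 0.05. Other steps used Python 3.11.15, numpy 2.4.6, scipy 1.17.1 and pandas 2.3.3. All labelled cells were kept, and doublets were not removed. The scripts were tested on simulated data.

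Symbols came from the study's tables of DE transcripts, which pair 2995 identifiers in the parts used. Named genes were the 3 factors, each matched gene of 4 pathway lists, the 5 genes most like each factor over cells, and markers. The factors and lists were chosen with earlier results of these data known. A listed gene is not reported here.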

Additional observations from a re-analysis of the deposited data

How the results depend on the processing

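Of 87 alternative values, 59 moved by less than their error, or for a count of called factors by at most 1.5 times, and 26 moved by more. The Nell2 call of the joint fit was lost under 2, and none changed direction. The log2 ratio of Ptn was 1.36 in Tag-seq and 2.01 in RNA-seq with scaling by total count only. Over the summed cells it was 1.93 with TMM, 1.71 with spike-in reads and 2.04 as the mean of each cell's CPM, and the same last 2 choices gave 1.15 and 0.78 for Scube1. Leaving out the highest VMP cell, the highest SU cell or both, chosen after seeing the data, gave 1.81, 2.15 and 1.94 for Ptn, 4.09, 5.29 and 4.99 for Nell2, and 0.84, 3.08 and 2.49 for Scube1. At 5 or more reads the share of cells was 84.8% for Ptn in SU, 53.1% for Nell2 in VMP and 14.3% for Scube1 in VMP, and at equal depth 93.7%, 69% and 32%, since both settings remove cells with few reads. The Nell2 call over both bulk assays was lost at 2.54 with DESeq2 (adjusted p = 0.114) and at 3.17 with the summed cells as the 3rd assay (adjusted p = 0.364); the cause was not tested. At a NOISeq probability of 0.95, Tag-seq called 1 of the 3 factors (2.31% of all transcripts) and RNA-seq 1 (5.00%). Tag-seq called 1 with a log2 limit of 1.5 (4.70%). With simulated counts on the same scale as the measured ones, added after seeing the data, 1 was called in Tag-seq (Ptn) and 2 in RNA-seq (Ptn and Nell2). The Scube1 call was lost in both, and 4.82% and 3.05% of all transcripts were called higher in VMP. Among pathway genes in the summed cells, leaving out the highest VMP cell reversed the log2 ratio of Itgb3 to -2.21, of Dhh to -0.70 and of Hhip to -2.05. No paired analysis was possible because the shared cell numbers are chip chambers, and the joint fits already pair the bulk tissues within each assay. With 1 library per tissue, none could be left out.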
